A study of Mus musculus with 75 samples.

Results

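The oocyte transcription factors described here are 7 genes, Figla, Nobox, Sohlh1, Sohlh2, Lhx8, Zglp1 and Taf4b, chosen by name and found in the deposited table as 7 of 26218 genes. The table covers 75 mouse libraries in 37 groups, made by SC3-seq, which reads the 3′ ends of transcripts; the study concerns how germ cells enter the female fate. Values are in RPM, reads scaled to a library total of 1e6 reads (1 M) on genes, and depth was estimated at 1.08 to 15.6 M reads a library (median 3.13), so that 3 reads stood for 0.192 to 2.78 RPM. A value under that floor is not told apart from absence.

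Embryonic germ cells came from ICR:C57BL/6 embryos, 2 libraries a group. From E9.5 to E11.5 they carried no sex label, and from E12.5 to E15.5 they were female or male. Cells up to E13.5 were sorted by Dppa3-EGFP and those at E14.5 and E15.5 by Ddx4-RFP, so stage and reporter cannot be told apart across that step. PGC-like cells (PGCLCs) were derived from embryonic stem cells and grown on m220 feeder cells. The 129S1:C57BL/6 line carried the reporters Prdm1-mVenus and Dppa3-ECFP and gave 2 libraries a group at day 0, in CT at days 3, 5, 7 and 9, and in RA or RB at days 5, 7 and 9, with factors given from culture day 3. The labels do not spell out the groups; CT is the culture without the female-fate factors, RA received retinoic acid and RB retinoic acid with BMP, as the study is known. The DBA/2:C57BL/6 experiment held wild-type cells (n = 2) and Stra8-/- cells (n = 4) in CT at day 3 and in RB at days 5, 7 and 9. Its knockout libraries came from the lines SK1 (2 libraries), SK2 and SK3. No CT library of that experiment was taken after day 3, so RB and time cannot be told apart within it. A further 7 groups of 1 library each were a 0R3B culture of the 129S1:C57BL/6 line at day 9 and 6 cultures of a C57BL/6 line with the allele Gtrosa26tm1Sor. The labels do not say that libraries of a group came from separate cultures or litters, so p-values measure the spread between these libraries, which may be technical.

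Fetal germ cells of both sexes start alike. In the ovary they enter meiosis and later build primordial follicles, and in the testis they become arrested prospermatogonia. FIGLA, NOBOX, SOHLH1, SOHLH2 and LHX8 are DNA-binding factors needed for oocyte survival or early follicle growth; the SOHLH pair also acts in spermatogonia. ZGLP1 is a GATA-like zinc finger protein known as a BMP-responsive factor of the oogenic fate. TAF4B is a germ-cell form of a TFIID subunit, the complex that sets RNA polymerase II at promoters.

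Figla, Sohlh1 and Sohlh2 all encode basic helix-loop-helix proteins, a class that binds the E-box CANNTG. The regions before their transcript starts are shown because these genes took different sides of the sex difference below. The windows hold the 250 bases before the start (234 for Sohlh2, trimmed at its annotated first exon), 5′ to 3′ on the gene's strand, from RefSeq on GRCm38.p6, with each E-box in capitals. Figla is chr6:86016941-86017190 on the plus strand, Sohlh1 chr2:25847249-25847498 on the minus strand and Sohlh2 chr3:55181794-55182027 on the plus strand. The Figla window precedes the start of its main transcript but lies inside the gene span given below, which begins further upstream.
Figla: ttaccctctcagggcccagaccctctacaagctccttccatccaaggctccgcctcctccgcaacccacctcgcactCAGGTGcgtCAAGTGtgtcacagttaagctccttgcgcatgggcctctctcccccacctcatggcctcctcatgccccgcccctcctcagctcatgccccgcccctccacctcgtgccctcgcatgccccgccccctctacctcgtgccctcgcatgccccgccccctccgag
Sohlh1: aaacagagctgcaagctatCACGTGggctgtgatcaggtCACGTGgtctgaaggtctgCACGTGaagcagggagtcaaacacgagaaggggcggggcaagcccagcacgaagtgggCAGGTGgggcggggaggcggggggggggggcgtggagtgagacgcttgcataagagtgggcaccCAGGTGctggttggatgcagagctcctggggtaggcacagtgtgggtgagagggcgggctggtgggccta
Sohlh2: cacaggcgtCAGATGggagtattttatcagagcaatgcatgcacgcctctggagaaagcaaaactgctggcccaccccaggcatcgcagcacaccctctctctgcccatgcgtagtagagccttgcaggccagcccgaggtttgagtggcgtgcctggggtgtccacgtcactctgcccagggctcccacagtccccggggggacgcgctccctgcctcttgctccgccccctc

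The window of Sohlh1 held 5 E-boxes, of which 3 were the CACGTG form. That of Figla held 2 and that of Sohlh2 held 1, with no CACGTG in either. Over 32851 mouse promoter windows of 250 bases, 66.2% held an E-box, with a median of 1, and 6.0% held a CACGTG, searched on both strands. The retinoic acid receptor half-site AGGTCA was found in the Sohlh1 window once, overlapping a CACGTG, and in 14.0% of all windows. The letters GATA were found once each in the windows of Sohlh1 and Sohlh2, and in 53.6% of all windows. The homeobox letters TAATTG and the SMAD-type letters GGCGCC were in none of the 3 windows, against 7.2% and 9.6% of all windows. These matches are letters in a window and not binding sites. The RefSeq table held a promoter for 6 of the 7 genes; the window of Zglp1 lies wholly in an exon of the read-through model Gm49373 and is not shown.

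The genes differ in size and place on GRCm38. Figla spans chr6:86016494-86020996, Nobox chr6:43303674-43310072, Sohlh1 chr2:25842995-25847248, Sohlh2 chr3:55182044-55209957, Lhx8 chr3:154306288-154330560, Zglp1 chr9:21062393-21067093 and Taf4b chr18:14783201-14960424. Gm49373 joins Zglp1 to its upstream neighbour Fdx1l on the same strand, so reads there may not be assigned to Zglp1 alone, and Fdx1l is given beside Zglp1 below.

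Detection set how much can be said of each factor. Sohlh2 and Taf4b reached 3 reads in 75 of 75 libraries, Zglp1 in 67, Figla in 40, Sohlh1 in 22, Nobox in 20 and Lhx8 in 18. Each experiment was fitted apart in limma on log2(RPM + 1), a scale that understates the change of low genes, among genes at 5 RPM in 2 or more libraries. That filter kept 6 of the 7 genes in the embryo (not Nobox), 4 in the 129S1:C57BL/6 line (Figla, Sohlh2, Zglp1 and Taf4b) and 5 in the Stra8 experiment (these and Sohlh1). A call needed a log2 fold change of 1 or more with a Benjamini-Hochberg adjusted p under 0.05. Because a gene can pass the filter through the group where it is high, counts over the genes tested are descriptions only.

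The 6 germ cell markers summed to 1134 to 7952 RPM, and Ddx4 and Dppa3 were above 0 in every library. The 8 testicular somatic markers summed to 58.05 to 58.26 RPM at E10.5, where cells carried no sex label. Males had 30.14 to 30.55 RPM against 29.3 to 29.48 in females at E12.5. At E13.5 males were lower, with 26.6 to 27.3 RPM against 31.1 to 32.9. The sum was 44.3 to 85.9 RPM in E14.5 males against 5.75 to 8.25 in females. At E15.5 it was 36.0 to 36.8 RPM against 6.56 to 7.79. From E13.5 to E14.5 this sum thus fell in females and rose in males, and E15.5 males stood below E10.5. In females at E12.5 and at E14.5, 6 of the 8 genes were at 0, and Star and Insl3 alone made up the sum. The same 6 were at 0 in the c0CT library of day 2 of the C57BL/6 PGCLC line, where the sum was 63.6 RPM. The sum thus does not stand for testicular cells alone. The 7 fibroblast and feeder markers were also higher in males, at 50.3 to 116.9 RPM against 28.9 to 39.7 in females at E14.5. At E15.5 these were 70.03 to 92.5 RPM against 5.78 to 31.2. Of their 5 tested genes, 5 were called lower in females at E15.5 and 5 higher in males at E15.5 than at E11.5. Amh, the defining Sertoli cell hormone, was at 0 in every library, and Sox9 was at 0 in E14.5 females. The 6 ovarian somatic markers summed to 21.2 to 31.2 RPM in E14.5 females against 6.93 to 9.43 in males, and overlapped at E15.5 (14.3 to 17.7 against 8.52 to 17.0). The part of these markers in the sex differences below was not tested. In bulk libraries fewer cells of a type and less RNA per cell cannot be told apart.

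In the embryo, Figla, Sohlh2 and Taf4b followed the ovary, Sohlh1 followed the testis, and Zglp1 was high in early females and then fell below the male level. Female was compared with male at 4 stages to ask which factors part by sex and when. Of the 6 genes tested, 1 was called at E12.5, where 6.53% of all genes were, and 2 at E13.5, against 16.7%. At E14.5 there were 4 (3 higher and 1 lower in females), against 48.3%, and at E15.5 all 6 (4 higher and 2 lower), against 53.6%. With about 1 gene in 2 of all tested genes called at the late stages, these counts do not set the factors apart.

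**Figure D1:**
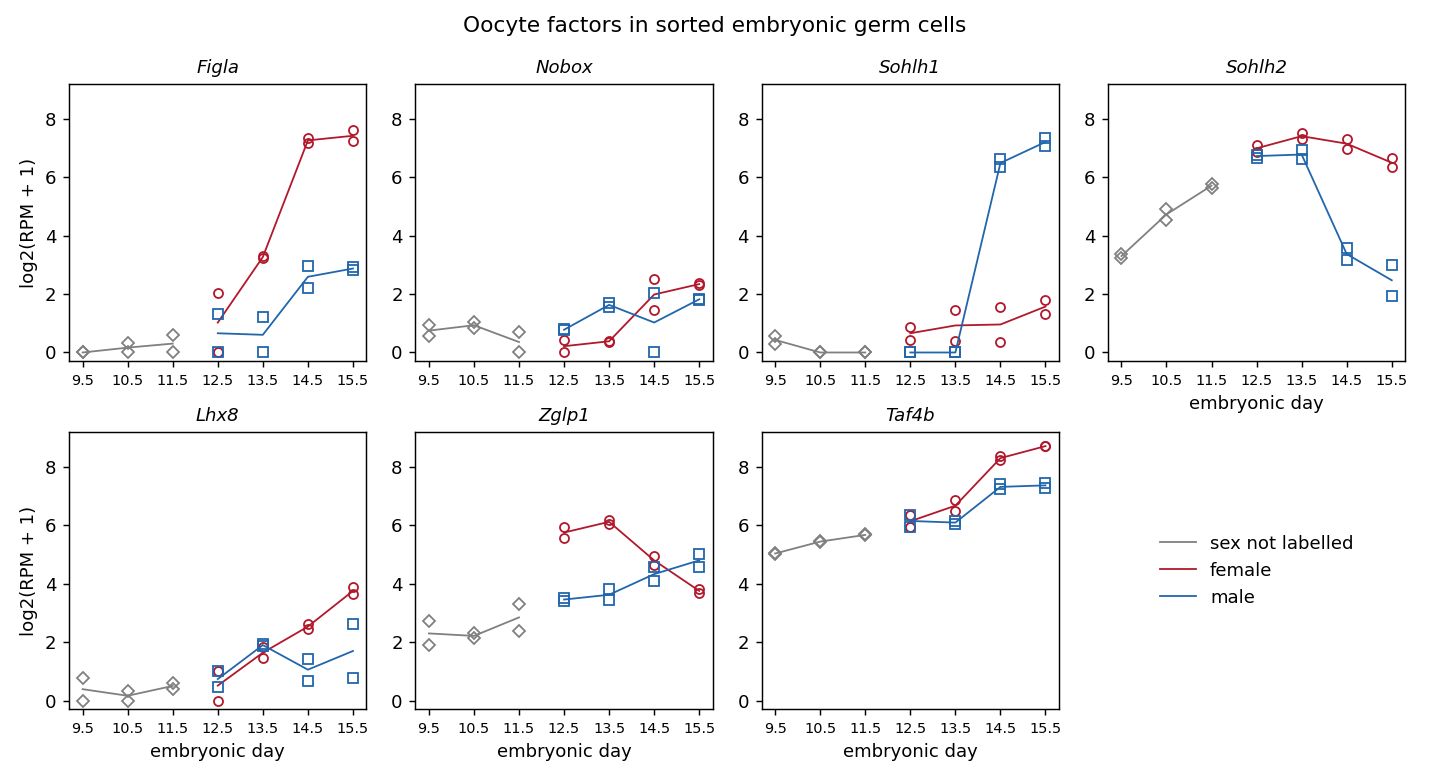
Level of each factor as log2(RPM + 1) against embryonic day in sorted germ cells; open symbols are single libraries (2 a group) and lines join group means. Figla rises in females, Sohlh1 in males, Sohlh2 drops in males after E13.5, and the Zglp1 lines cross between E14.5 and E15.5.

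FIGLA drives zona pellucida genes in oocytes. Figla was at 0 in both E9.5 libraries, and at 3.13 and 0 RPM in E12.5 females. Females then had 8.94 and 8.34 RPM at E13.5, 162 and 143 at E14.5, and 149 and 194 at E15.5. Males had 0 and 1.31, 3.62 and 6.86, and 6.67 and 6.00 RPM at the same stages, so the sexes did not overlap from E13.5. Female over male gave a log2 fold change of 2.66 ± 0.53 (SE) at E13.5 (limma adjusted p = 0.000467), 4.67 ± 0.53 at E14.5 (4.89e-08) and 4.54 ± 0.53 at E15.5 (5.66e-08). Against E11.5, Figla also rose in males by E15.5, with a log2 fold change of 2.57 ± 0.53 (limma adjusted p = 0.000175), beside 7.11 ± 0.53 in females (2.34e-11).

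SOHLH2 is present in germ cells of both sexes early on. Sohlh2 climbed from 9.24 and 8.46 RPM at E9.5 to 48.8 and 53.9 at E11.5. E12.5 females had 116 and 136 RPM and males 108 and 101, a difference that was not called (log2 fold change 0.26 ± 0.24, limma adjusted p = 0.541). At E13.5 it was 158 and 179.5 RPM against 120.3 and 97.8 (0.63 ± 0.24, 0.054). Males then had 10.8 and 8.0 RPM at E14.5 and 7.04 and 2.82 at E15.5, while females kept 158 and 125, then 99.8 and 79.6. The female over male log2 fold change was 3.78 ± 0.24 at E14.5 (limma adjusted p = 3.5e-12) and 4.02 ± 0.24 at E15.5 (7.36e-13). The late sex difference in Sohlh2 came with a fall in males: against E11.5, males at E15.5 were lower (log2 fold change -3.24 ± 0.24, limma adjusted p = 5.91e-11), and the female difference of 0.79 ± 0.24 did not reach the fold needed for a call.

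SOHLH1 is the partner of SOHLH2 and is best known in spermatogonia and primordial oocytes. Sohlh1 showed the opposite sex pattern. It was at 0 in both male libraries at E12.5 and at E13.5, and in both libraries at E10.5 and at E11.5. Males then had 79.8 and 98.0 RPM at E14.5 and 133 and 161 at E15.5. The E14.5 male mean was at least 90.2-fold higher than 3 reads in the shallower E13.5 male library. Females had 0.295 and 1.92 RPM at E14.5 and 1.52 and 2.51 at E15.5, so the sexes did not overlap at either stage. Against E11.5, Sohlh1 was called higher at E15.5 in males (7.20 ± 0.41, limma adjusted p = 3.35e-13) and in females (1.57 ± 0.41, 0.00141). The female call was lost with a pseudocount of 5 RPM (0.485). Female over male came to a log2 fold change of -5.53 ± 0.41 at E14.5 (limma adjusted p = 3.24e-11) and -5.63 ± 0.41 at E15.5 (1.51e-11). At E13.5 females had 1.73 and 0.321 RPM, a difference from males that was not called (limma adjusted p = 0.0873). Without the second of these libraries it was called (1.45, adjusted p = 0.0311), with both levels near or under the floor.

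Among the embryo groups Zglp1 was highest early. E12.5 females had 59.8 and 46.9 RPM of Zglp1 against 10.4 and 9.61 in males, and E13.5 females had 65.5 and 71.8 against 13.0 and 9.85. This was a log2 fold change of 2.29 ± 0.32 at E12.5 (limma adjusted p = 3.96e-05) and 2.50 ± 0.32 at E13.5 (3.1e-06), when Figla was at most 8.94 RPM in any library. At E14.5 females had 24.1 and 29.9 RPM and males 16.0 and 22.9, and the difference was not called (0.47 ± 0.32, limma adjusted p = 0.204). At E15.5 females had 13.1 and 12.0 RPM against 23.0 and 31.4, and Zglp1 was lower in females (log2 fold change -1.04 ± 0.32, limma adjusted p = 0.00611). This late call rests on a change close to the fold threshold. It was lost without the second male library (-0.83, adjusted p = 0.0717) and without the second female library (-0.98, fold under the threshold), and with median centring or quantile normalization. Fdx1l did not share the early pattern: it was 109 and 127 RPM in E12.5 females against 117 and 99.6 in males, and 42.3 and 42.0 against 81.5 and 80.8 at E15.5. At E15.5 it moved with Zglp1 (log2 fold change -0.93 ± 0.16, limma adjusted p = 1.44e-05, fold under the threshold), and the change of its sex difference from E12.5 was called (-1.05 ± 0.22, adjusted p = 0.000304). How far reads of the 2 genes are shared was not tested.

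Taf4b rose in both sexes and further in females. Taf4b was 32.4 and 31.2 RPM at E9.5, and 80.3 and 60.1 in E12.5 females against 81.1 and 60.4 in males. At E14.5 it was 299 and 329.8 RPM in females and 149 and 168 in males, and at E15.5 415 and 421 against 155 and 174. Female over male this was a log2 fold change of 0.99 ± 0.16 at E14.5 (limma adjusted p = 6.28e-06), just under the fold needed for a call. Without the first E14.5 female library it was 1.05 and without the second E14.5 male library 1.07, both called. At E15.5 it was 1.34 ± 0.16 (limma adjusted p = 4.93e-08). Against E11.5, it was 3.04 ± 0.16 in females (2.35e-14) and 1.70 ± 0.16 in males (1.59e-09).

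LHX8 and NOBOX, a LIM-homeobox and a homeobox factor of later oocytes, were scarce. Lhx8 reached 4.42 and 5.20 RPM in E14.5 females against 0.603 and 1.71 in males, and 13.7 and 11.4 against 5.19 and 0.706 at E15.5. Female over male gave 1.48 ± 0.48 at E14.5 (limma adjusted p = 0.00967) and 2.06 ± 0.48 at E15.5 (0.000579). The first call was lost without the first male library (1.10, adjusted p = 0.111) or the second female library (1.38, 0.0519), and the second without the second male library (1.13, 0.0553). Nobox was not tested. It was 0.348 and 0 RPM in E12.5 females against 0.744 and 0.687 in males, and 0.288 and 0.321 against 2.22 and 1.97 at E13.5. The E12.5 values of both sexes and the E13.5 female values were under the floor of 3 reads. The sexes overlapped at E14.5, and at E15.5 females had 3.95 and 4.18 RPM against 2.59 and 2.47. Most of these levels are a few reads, and its highest level in any of the 75 libraries was 7.15 RPM.

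The change of the sex difference from E12.5 to E15.5 was tested as a contrast of contrasts, for which 49.9% of all genes were called. All 6 genes tested were called. It was 4.18 ± 0.75 for Figla, 3.76 ± 0.34 for Sohlh2, 2.28 ± 0.68 for Lhx8 and 1.35 ± 0.22 for Taf4b, towards females. It was -6.29 ± 0.57 for Sohlh1 and -3.34 ± 0.46 for Zglp1, towards males. For Lhx8 the call was lost without the second E15.5 male library (1.35, adjusted p = 0.0844). In the E15.5 against E11.5 comparison 52.6% of all genes were called in females and 47.1% in males, beside 4 and 6 of the 6 genes tested. The male call of Lhx8 (1.195 ± 0.48, limma adjusted p = 0.033) was lost without the first E15.5 male library (0.27, 0.67), without the first E11.5 library (1.30, 0.0687) and without the second E11.5 library (1.09, 0.125). For Zglp1 in females the difference was 0.91 ± 0.32 and not called; without the second E11.5 library it was 1.38 and called.

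In PGCLCs of the 129S1:C57BL/6 line, Zglp1 was called higher with RB from day 5, Figla and Sohlh2 from day 7, and Taf4b at day 9. This order is one of calls, and the timing between genes was not tested. RA raised Sohlh2 as well and Zglp1 less than RB did, and neither Figla nor Taf4b was called higher with it. Of the 4 genes tested, RB against CT called 1 at day 5 (all genes 0.674%), 3 at day 7 (19.3%) and 4 at day 9 (36.7%), all higher. RA against CT called 0 at day 5 (0.244%), 1 at day 7 (5.21%) and 2 at day 9 (16.3%). At day 5 the unadjusted limma p was under 0.05 for Sohlh2 (log2 fold change 0.98 ± 0.20), whose adjusted p was 0.0254 and whose fold missed the threshold. RB against RA called 1 at day 5 (0.0421%), 2 at day 7 (4.62%) and 3 at day 9 (24.8%). The comparisons with CT share its libraries. The median log2 fold change over all genes tested was 0.19 for RB and 0.20 for RA against CT at day 9, and the values below are set against that shift.

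**Figure D2:**
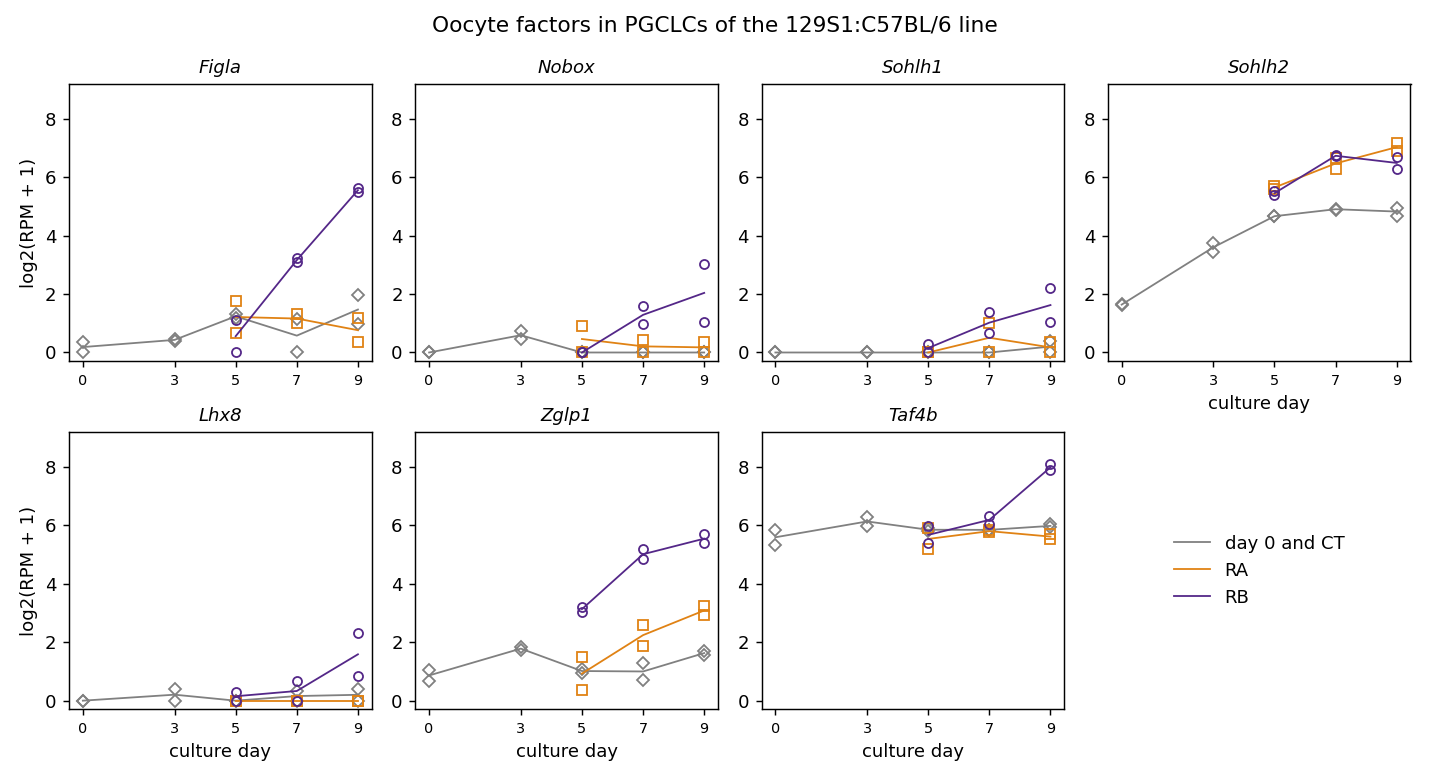
Level of each factor as log2(RPM + 1) against culture day in PGCLCs of the 129S1:C57BL/6 line; open symbols are single libraries (2 a group) and lines join group means. Figla, Zglp1 and Taf4b separate RB from RA by day 9, while for Sohlh2 both lie above CT.

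Zglp1 was 7.23 and 8.33 RPM in RB at day 5, against 1.10 and 0.942 in CT and 1.79 and 0.295 in RA. RB libraries then had 27.7 and 35.2 RPM at day 7 and 40.9 and 51.0 at day 9, with CT at 1.93 and 2.26 and RA at 6.62 and 8.48 at day 9. RB did not overlap CT or RA on any of these days. RB over CT gave a log2 fold change of 2.12 ± 0.40 at day 5 (limma adjusted p = 0.00744), 4.01 ± 0.40 at day 7 (7.99e-08) and 3.92 ± 0.40 at day 9 (1.82e-08). The day 5 call was lost without the second RB library (adjusted p = 0.122) or the second CT library (0.0894). Over RA it was 2.204 ± 0.40 at day 5 (0.0249), 2.77 ± 0.40 at day 7 (0.000122) and 2.46 ± 0.40 at day 9 (2.95e-05). The day 5 call over RA was lost without the first RB library (2.30, adjusted p = 0.143), without the second (2.11, 0.49) and without the second RA library (1.65, 1). RA over CT at day 9 was 1.46 ± 0.40 (limma adjusted p = 0.00813), a call lost without the first CT library (1.38, adjusted p = 0.0513) or the second RA library (1.30, 0.0763), and under quantile normalization (0.91, 0.0919). Fdx1l, the neighbour, was 104 and 99.3 RPM in RB at day 9 against 85.2 and 96.7 in CT, and was not called.

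Figla stayed at or under 1.17 RPM in RB at day 5 and was 7.59 and 8.32 RPM at day 7 and 48.1 and 44.0 at day 9. CT libraries had 2.89 and 0.970 RPM and RA libraries 1.26 and 0.273 at day 9, both far below RB. RB exceeded CT by a log2 fold change of 2.59 ± 0.49 at day 7 (limma adjusted p = 0.000345) and 4.09 ± 0.49 at day 9 (2.67e-07). RB over RA was 2.00 ± 0.49 at day 7 (limma adjusted p = 0.014) and 4.79 ± 0.49 at day 9 (7.7e-08). The day 7 call over RA was lost when any 1 of the 4 libraries was left out (1.85 to 2.15, adjusted p 0.0526 to 0.134). RA against CT at day 9 was -0.71 ± 0.49 and not called (limma adjusted p = 0.31); under quantile normalization it was called lower (-1.33, 0.0371), at levels near the floor.

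Sohlh2 rose before any factor was added, from 2.05 and 2.17 RPM at day 0 to 9.87 and 12.53 in CT at day 3 (log2 fold change 1.96 ± 0.20, limma adjusted p = 4.44e-07). It was the only one of the 4 genes called between those days, where 5.47% of all genes were called, and the only one called in CT between day 3 and day 9 (1.22 ± 0.20, 0.000859), where 2.25% were. At day 5 RB libraries had 44.6 and 41.0 RPM, already clear of 24.2 and 24.5 in CT, and the difference was not called (0.79 ± 0.20, limma adjusted p = 0.0705). At day 7 RA libraries had 77.3 and 99.2 RPM, RB libraries 106 and 104, and CT libraries 29.4 and 28.4. At day 9 the values were 118 and 142 RPM in RA, 77.4 and 101 in RB, and 24.7 and 30.1 in CT. Over CT at day 9, this was a log2 fold change of 2.21 ± 0.20 for RA (limma adjusted p = 3.35e-08) and 1.66 ± 0.20 for RB (2.8e-07). RB against RA at day 9 was -0.54 ± 0.20 (limma adjusted p = 0.0336), with no overlap of libraries and a fold under the threshold.

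Taf4b did not differ between CT, RA and RB by the call at days 5 and 7. At day 9 RB libraries had 270.4 and 236 RPM, CT libraries 64.6 and 59.8, and RA libraries 50.7 and 45.4. RB was higher by a log2 fold change of 2.00 ± 0.22 over CT (limma adjusted p = 8.35e-08) and 2.37 ± 0.22 over RA (2.28e-08). RA against CT was -0.37 ± 0.22 and not called (0.242). The 3 low genes were not tested in this line. In RB at day 9, Sohlh1 was 3.57 and 1.07 RPM, Lhx8 0.794 and 4.02, and Nobox 7.15 and 1.07, each above both CT and both RA libraries of that day. Without the filter on low values all 7 were called for RB against CT at day 9. With the filter 36.7% of all genes were called, and the share without it is not given here. These 3 genes were at most 7.15 RPM and differed between their 2 libraries, so this count is a description only.

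The change of the RB against CT difference from day 5 to day 9, for which 29.7% of all genes were called, was 4.77 ± 0.70 for Figla (limma adjusted p = 1.32e-05), 2.18 ± 0.32 for Taf4b (1.2e-05) and 1.80 ± 0.56 for Zglp1 (0.0145). The Zglp1 call was lost without the second RB day 9 library (1.64, adjusted p = 0.0628). For Sohlh2 it was 0.88 ± 0.28 (0.0184), with a fold under the threshold. Without the first RB day 9 library it was 1.07 and called, and without the second CT day 9 library 1.01 and called. The 7 fibroblast and feeder markers summed to 15.3 to 40.9 RPM in RB, 38.2 to 95.4 in CT and 103 to 184 in RA at day 9. Ovarian somatic markers summed to 16.5 to 40.9 RPM in RB, 2.89 to 4.85 in CT and 15.3 to 20.2 in RA, with Wnt4 called higher in RB than in CT. Blood and endothelium markers summed to 18.9 to 32.5 RPM in RB, 73.6 to 97.8 in CT and 46.5 to 49.6 in RA, with Pecam1 called lower in RB than in CT. Of this list, Hbb-y, Hba-x, Cdh5 and Ptprc were at 0 in RB, CT and RA at day 9, so Hba-a1 and Pecam1 alone made up the sums. The part of these markers in the differences was not tested.

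The Stra8 experiment asks which of these responses need STRA8, the retinoic acid target that starts meiosis. At day 9, no difference between genotypes was called for Zglp1 and Sohlh2, which rose in both. Figla and Taf4b were lower in knockout, and Sohlh1 was higher. The targeted gene was read first. Stra8 was 1813 and 1717 RPM in wild type at day 9, 105 and 122 in the SK1 libraries, 77.9 in SK2 and 483 in SK3 (limma adjusted p = 7.53e-06 for knockout against wild type). Which part of Stra8 was deleted is not in the labels, and a 3′ read outside it checks nothing. RNA spike-in was present in 10 and absent from 14 libraries of this experiment, and values within each status are given below.

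Of the 5 genes tested, knockout against wild type called 0 at day 3 (all genes 0.00819%) and 0 at day 5 (0.0164%). The limma p without adjustment was over 0.05 for all 5 on both days. At day 7 it called 2, both lower (8.73%), and at day 9 it called 3, with 1 higher and 2 lower (19.1%). In wild type, RB against CT day 3 called 2 of 5 at day 5 (2.25%) and 5 of 5 at day 9 (43.7%), all higher. In knockout it called 1 at day 5 (3.28%) and 4 at day 9 (33.9%), all higher. The median log2 fold change over all genes tested was 0.23 in wild type and 0.27 in knockout at day 9.

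**Figure D3:**
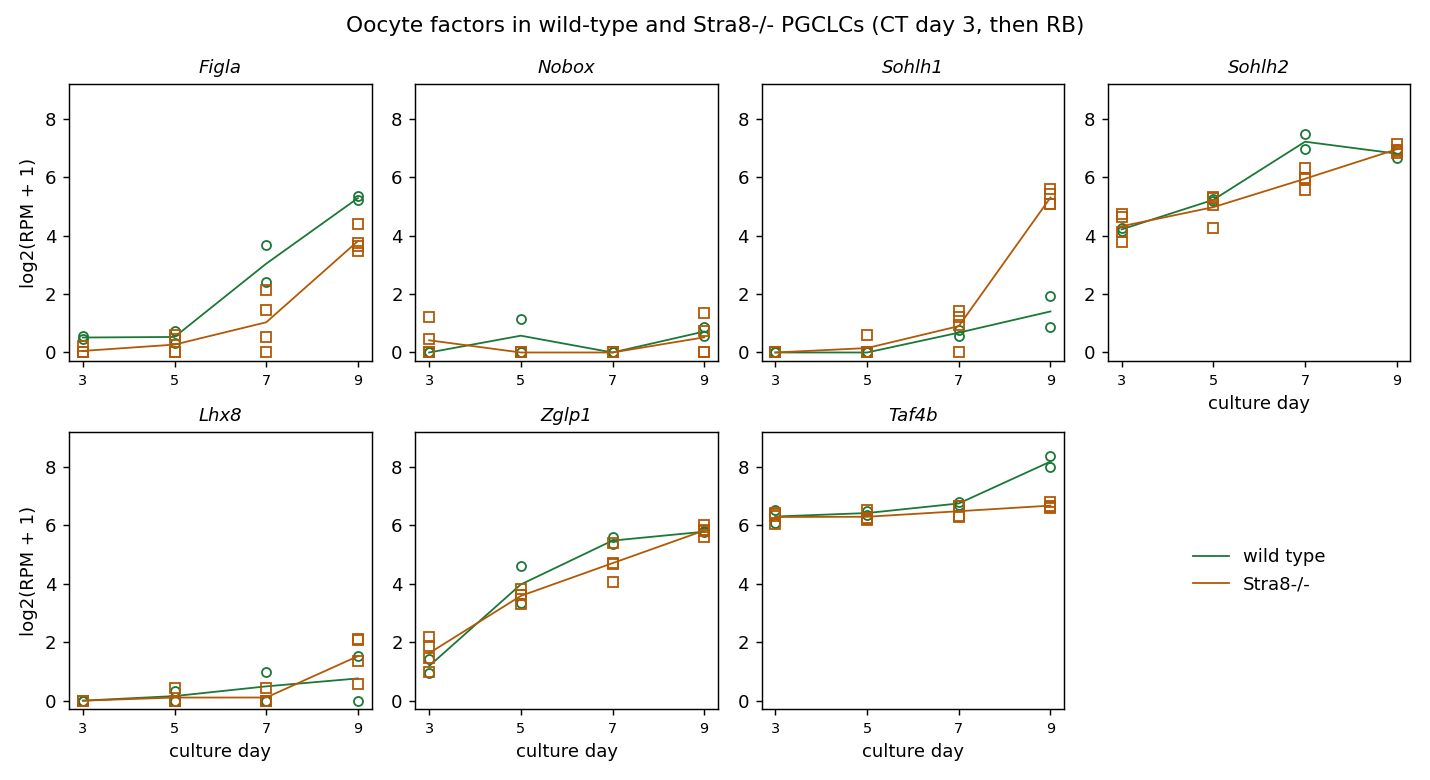
Level of each factor as log2(RPM + 1) against culture day in wild-type (2 libraries a day) and Stra8-/- PGCLCs (4 libraries a day); open symbols are single libraries and lines join group means. At day 9 the genotypes share 1 range for Zglp1 and Sohlh2 and separate for Figla, Taf4b and Sohlh1.

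Zglp1 rose in both genotypes. It was 1.66 and 0.941 RPM in wild type at day 3, 23.4 and 9.17 at day 5, 47.1 and 40.3 at day 7, and 53.7 and 54.3 at day 9. Knockout libraries had 0.978 to 3.51 RPM at day 3, 8.86 to 13.0 at day 5, 15.7 to 40.7 at day 7 and 47.9 to 62.9 at day 9. The genotypes overlapped on each of the 4 days, and no difference was called. At day 9 the log2 fold change of knockout over wild type was 0.04 ± 0.34 (limma adjusted p = 0.942), and the rise over day 3 was 4.60 ± 0.39 in wild type (1.14e-11) and 4.20 ± 0.28 in knockout (2.5e-14). The difference between these rises was -0.40 ± 0.48 (adjusted p = 0.597). Zglp1 had already risen by day 5, by 2.79 ± 0.39 in wild type (limma adjusted p = 1.6e-05) and 1.96 ± 0.28 in knockout (9.13e-06). Fdx1l was 131 to 158 RPM in knockout and 87.3 and 82.9 in wild type at day 9 (0.76 ± 0.14, limma adjusted p = 8.75e-05, fold under the threshold).

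Sohlh2 was lower in knockout at day 7, and no difference was called at day 9. At day 7 wild type had 177 and 123 RPM, SK1 78.7 and 46.6, SK2 59.6 and SK3 61.7, with no overlap. Knockout over wild type gave a log2 fold change of -1.27 ± 0.25 (limma adjusted p = 0.000584). It was -1.16 among libraries with spike-in and -1.13 among those without. At day 9 wild type had 124 and 98.8 RPM and knockout 113 to 139.7, and the difference was 0.15 ± 0.25 (adjusted p = 0.672). The rise from day 3 to day 9 differed between genotypes by 0.04 ± 0.36 (adjusted p = 0.948). In wild type the day 5 call of Sohlh2 (1.01 ± 0.29, limma adjusted p = 0.0467) sat at both thresholds and was lost when any 1 of its 4 libraries was left out (0.95 to 1.07, adjusted p 0.173 to 0.222).

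Figla rose in both genotypes and stayed lower in knockout. At day 7 wild type had 4.34 and 11.7 RPM, SK1 0 and 0.448, SK2 3.40 and SK3 1.75. At day 9 wild type had 39.5 and 36.5 RPM, SK1 12.3 and 11.48, SK2 20.3 and SK3 10.04, again with no overlap. The log2 fold change of knockout over wild type was -2.01 ± 0.46 at day 7 (limma adjusted p = 0.0025) and -1.47 ± 0.46 at day 9 (0.0116). The day 7 call was lost without line SK1 (-1.24, adjusted p = 0.103) and without the second wild-type library (-1.39, 0.124). The day 9 call was lost without the first (-1.42, 0.0788) or the second wild-type library (-1.52, 0.0682), and with a pseudocount of 0.25 RPM (-1.52, 0.129). At day 9 the difference was -1.60 with spike-in and -1.39 without. The rise over day 3 was 4.77 ± 0.53 in wild type (limma adjusted p = 3.98e-09) and 3.76 ± 0.38 in knockout (3.28e-10). The difference between these rises, -1.01 ± 0.65, was not called (adjusted p = 0.284); with a pseudocount of 5 RPM it was (-1.14, 0.00656).

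The rise of Taf4b was smaller in knockout. Wild type had 66.8 and 90.8 RPM at day 3, 111 and 102.5 at day 7, and 254 and 329 at day 9. Knockout at day 9 had 95.4 and 98.1 RPM in SK1, 101 in SK2 and 110.5 in SK3, below both wild-type libraries. The log2 fold change of knockout over wild type at day 9 was -1.51 ± 0.16 (limma adjusted p = 4e-09). Within the libraries with spike-in it was -1.41 and within those without -1.66. Over day 3 Taf4b rose by 1.88 ± 0.18 in wild type (limma adjusted p = 1.55e-10), while the knockout difference of 0.39 ± 0.13 (0.00867) was under the fold threshold. The difference between them was -1.49 ± 0.22 (adjusted p = 8.52e-06), among 14.9% of all genes called in that contrast.

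Sohlh1, the testis-side factor, was called higher in knockout. It was at 0 in all 6 libraries of day 3 and at most 1.70 RPM in knockout at day 7. At day 9 it was 42.2 and 33.0 RPM in SK1, 47.1 in SK2 and 33.2 in SK3, against 0.839 and 2.81 in wild type. All 4 knockout libraries from 3 lines stood above both wild-type libraries, and their mean was at least 22.05-fold higher than 3 reads in the shallowest knockout library of day 3. The log2 fold change of knockout over wild type at day 9 was 3.90 ± 0.41 (limma adjusted p = 5.71e-09), and the change of the knockout effect from day 3 was 3.90 ± 0.58 (9.71e-06). Within the libraries with spike-in the day 9 difference was 4.55, and within those without it was 3.33. The small rise in wild type from day 3 to day 9 (1.404 ± 0.47, limma adjusted p = 0.0114) was lost without the second day 9 library (0.88, 0.204), under quantile normalization and with a pseudocount of 5 RPM.

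Marker lists named for other cell types were read beside Sohlh1. At day 9 testicular somatic markers summed to 17.8 to 25.9 RPM in knockout and 10.1 to 11.8 in wild type. Of the 8, Amh, Cyp17a1 and Hsd3b1 were at 0 in both genotypes, and Dhh and Cyp11a1 were at 0 in wild type and at most 3.09 and 1.298 RPM in knockout. Of the 3 tested, Insl3 was called higher in knockout than in wild type at day 9 (4.78 to 11.9 against 0.0318 to 4.80 RPM). Sox9 was 0.773 to 5.26 RPM in knockout and 1.405 to 1.68 in wild type, and it was called higher in knockout at day 9 than at day 3. Blood and endothelium markers summed to 65.4 to 107.7 RPM in knockout and 21.1 to 34.4 in wild type at day 9. Of the 6, Hbb-y, Hba-x and Ptprc were at 0 in both genotypes, and Cdh5 was at 0 in wild type. Pecam1, the 1 of the 6 tested, was called higher in knockout. At day 3 these sums were higher, 120.3 to 205.6 RPM in knockout and 134.6 to 147 in wild type. Testicular sums at day 3 were 28.3 to 45.5 RPM in knockout and 35.3 to 49.1 in wild type, also above those of day 9. Fibroblast and feeder markers summed to 7.20 to 14.3 RPM in knockout and 7.02 to 23.5 in wild type. The part of these markers in the Sohlh1 difference was not tested.

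The summary plot sets 5 comparisons side by side for the genes tested.

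**Figure D4:**
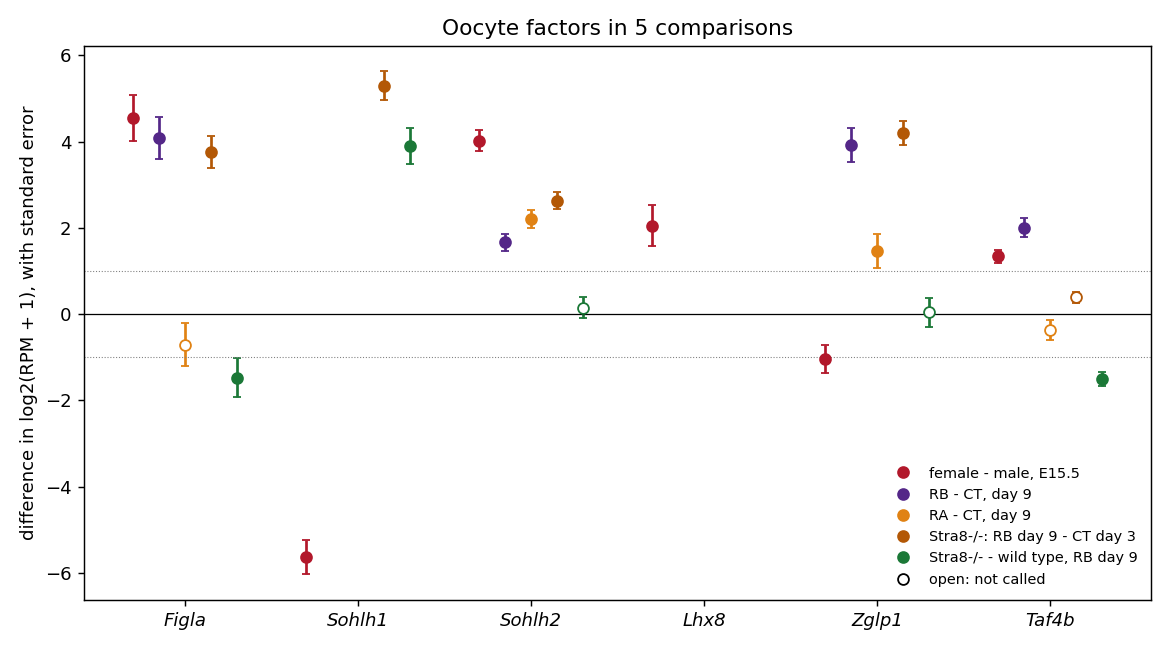
Difference in log2(RPM + 1) with its standard error for each factor tested in 5 comparisons; filled points were called and dotted lines mark a difference of 1. Sohlh1 lies at -5.63 for female against male at E15.5 and at 3.90 for Stra8-/- against wild type, while Zglp1 and Sohlh2 lie near 0 in the latter.

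The order of the 37 groups by mean level differed from gene to gene. Figla was highest in E15.5 females (171 ± 32.2 RPM, SD, n = 2) and E14.5 females (152 ± 13.2), which overlapped, followed by RB at day 9 in the 129S1:C57BL/6 line (46.0 ± 2.86) and wild-type RB at day 9 (38.0 ± 2.07). Sohlh1 was highest in E15.5 males (147 ± 20.0), then E14.5 males (88.9 ± 12.9) and knockout RB at day 9 (38.9 ± 6.95, n = 4), none overlapping its neighbour. Sohlh2 was highest in E13.5 females (169 ± 15.4), and its first 8 groups overlapped their neighbours in turn. Zglp1 was highest in E13.5 females (68.6 ± 4.501), clear of knockout RB at day 9 (55.9 ± 6.18), which overlapped wild-type RB at day 9 and E12.5 females. Taf4b was highest in E15.5 females (418 ± 4.61), and the next groups, 0R3B at day 9, E14.5 females, wild-type RB and 129S1:C57BL/6 RB at day 9, overlapped their neighbours. Lhx8 was highest in E15.5 females (12.6 ± 1.61), clear of E14.5 females. Nobox was highest in RB at day 9 of the 129S1:C57BL/6 line (4.11 ± 4.30), which overlapped E15.5 females.

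Across the 37 group means of log2(RPM + 1), Figla was most like Taf4b among the 7 (Pearson r = 0.898), and Sohlh1 and Sohlh2, the known partners, gave r = -0.079. Among 11995 genes, those most like Figla were Dmrtc2 (r = 0.967), Zfp541 (0.965) and BC022960 (0.964). Those most like Sohlh1 were Ctag2 (0.947), Crtam (0.921) and Dbndd1 (0.920). Sohlh2 was most like Rhox2a, Rhox2b and Rhox2e (0.884 to 0.886), near-identical copies whose reads may be split between them. Zglp1 was most like Mapk8 (0.903), Cspg5 (0.902) and Scml2 (0.893). Taf4b was most like BC055324 (0.959), Spata5 (0.958) and Mycbp2 (0.957), and Lhx8 was most like Zc3h8 (0.873), Pacs2 (0.867) and Phf7 (0.863). Nobox was most like Hpse2 (0.865), Setd1a (0.852) and Tmem145 (0.839). The points share libraries, depth and experiments, and these values are descriptions.

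Genes that these factors work on or with were read from lists chosen with earlier results known. Because a list gene can pass the filter through the group where it is high, list counts and medians are descriptions only. Of 17 oocyte growth genes in the table, 6 were tested in the embryo and 4 in each culture experiment. At E15.5, 5 of the 6 were lower in females (median log2 fold change -3.28, against -0.14 over all genes) and 0 were higher, where 53.6% of all genes were called. These included Uchl1, a ubiquitin hydrolase (46.9 against 1570 RPM), Nlrp14 (0.304 against 16.7) and Ooep, of the subcortical maternal complex (1.33 against 27.7). The female means of Nlrp14 and Ooep were under the 5 RPM of the filter. The FIGLA target Zp3 was at 0 in both E15.5 female libraries while Figla was 149 and 194 RPM, and Gdf9, an oocyte growth factor, was 0.709 ± 0.572 RPM (SD, n = 2). In knockout against wild type at day 9 where 19.1% of all genes were called, all 4 tested were higher (median 1.398, against 0.09 over all genes): Tle6 (57.5 against 15.8 RPM), Ooep (178 against 56.1), Kit, the stem cell factor receptor (302 against 137), and Uchl1 (242 against 119.6).

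Helix-loop-helix factors work as dimers with E proteins, and ID proteins block them. Of 10 genes of this list tested in the embryo, 4 were higher and 3 lower in females at E15.5 (median -0.45, against -0.14), beside 53.6% of all genes called. The BMP targets Id1 (147 against 3.22 RPM), Id3 (132 against 7.46) and Id2 (20.2 against 0.723) were higher, as was the E protein gene Tcf12 (179 against 77.9), and Tcf3 was lower (88.5 against 233.5). In RB against CT at day 9, 5 of 10 were higher and 1 lower (median 1.17, against 0.19; all genes 36.7%), led by Id1 (315 against 4.19 RPM), Id2 (95.5 against 17.3) and Id4 (16.5 against 2.42). In knockout against wild type at day 9, 2 of 10 were higher, Id1 (749.7 against 232) and Id2 (247 against 109.6), and 0 lower (median 0.14, against 0.09), a share near the 19.1% of all genes.

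At E15.5 females were higher for 5 and lower for 4 of 17 TFIID subunit genes (median 0.37, against -0.14), and 5 were higher and 0 lower in RB against CT at day 9 (median 0.71, against 0.19). These shares are no higher than those of all genes, 53.6% and 36.7%. Taf7l, a germ-cell form of TAF7, was 1174 against 90.3 RPM in the embryo and 929.8 against 0.969 in culture. Taf9b was 68.0 against 27.7 RPM in the embryo and 58.1 against 2.74 in culture. In knockout against wild type at day 9, 2 of 17 were lower, Taf9b (11.4 against 61.9 RPM) and Taf7l (300.6 against 808.5), and 0 were higher (median -0.41, against 0.09; all genes 19.1%). Taf4b was lower in the same comparison.

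Of 7 spermatogonial genes tested in the Stra8 experiment, 6 were higher in knockout at day 9 and 0 lower (median 2.03, against 0.09 over all genes), where 19.1% of all genes were called. Gfra1, the GDNF receptor, was 11.46 against 1.12 RPM (log2 fold change 2.55 ± 0.43, limma adjusted p = 1.75e-05). Neurog3 was 4.88 RPM in knockout and 0 in wild type, Upp1 9.23 against 1.12, and Lin28a, which blocks let-7 maturation, 10.9 against 1.96. The wild-type means of Gfra1, Neurog3, Upp1 and Lin28a were under the 5 RPM of the filter. Such genes may have passed it through knockout libraries, so the count and the median are descriptions only. Dmrt1, a regulator of the male germ line, was 210.0 against 74.3 RPM (limma adjusted p = 2.41e-09), and Sox3 was not called (5.07 against 4.95). At day 7 limma called 0 of the 7, with 1 at an unadjusted p under 0.05 (median 0.26, against -0.09), where 8.73% of all genes were called. Any link between Sohlh1 and these genes was not tested. In the embryo, 5 of 6 tested were lower in females at E15.5 (median -3.30, against -0.14; all genes 53.6%), among them Sall4 (5.66 against 265), Upp1 (0.609 against 14.7) and Lin28a (1.13 against 17.4).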

How the data were processed

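The 75 libraries were made by SC3-seq from 1 ng of RNA each. Per the labels, the deposited table holds a signal in RPM per gene, scaled by the authors to reads on genes, with 96 spike-in rows on the same scale. The submitters' processing notes name cutadapt 1.11, TopHat 1.4.1, Bowtie 1.0.1, Cufflinks 2.2.0 and the build mm10, with no order or settings. The coordinates printed are those of the same build in RefSeq and GENCODE. Whether counting used strand is not given in the sources used here.

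Depth was estimated from the RPM of 1 read, the step between low values. Of low values, 80.8 to 93.2% were whole reads within 0.05 of a read, so reads were not taken as recovered and no test used a count model. Only the Poisson intervals of the groups of 1 library rest on estimated reads, rounded to whole numbers. Values under 0.001 RPM (2777) were set to 0. Intervals and floors of 3 reads cover counting error only.

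Each experiment was fitted apart in limma 3.58.1 under R 4.3.3 (lmFit, eBayes with trend), 1 mean per group, on log2(RPM + 1), for genes at 5 RPM in 2 libraries: 12567 for the embryo, 11873 for PGCLCs of the 129S1:C57BL/6 line and 12206 for the Stra8 libraries (11, 11 and 16 residual degrees of freedom). Benjamini-Hochberg adjustment ran over all genes tested in each of 28 comparisons. The script was tested on simulated data. Similar genes were the 3 with the highest Pearson r over group means, leaving out predicted names. Named list genes were up to 4 called genes of the largest change per list and comparison; the text leaves some out, and names Zp3, Gdf9, Tcf3, Tcf12, Dmrt1 and, in the embryo, Taf9b after their values were seen. The members and lists were chosen with earlier results of these data known. Alternatives tried were other pseudocounts, filters and scalings, 1 fit over all experiments, a replicate block, a spike-in term, leaving out shallow libraries, single libraries or knockout lines, and averaging the SK1 libraries.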

Additional observations from a re-analysis of the deposited data

Results flagged for a closer look

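The sex difference at E15.5 was called different from that at E12.5 for all 6 factors tested, beside 49.9% of all genes. In this contrast of contrasts (limma, log2 scale) it shifted towards females by 4.18 for Figla, 3.76 for Sohlh2, 2.28 for Lhx8 and 1.35 for Taf4b. Towards males it shifted by -6.29 for Sohlh1 and -3.34 for Zglp1. The Lhx8 call was lost without the second E15.5 male library (1.35). The RB against CT difference changed between day 5 and day 9 by 4.77 for Figla, 2.18 for Taf4b and 1.80 for Zglp1, beside 29.7% of all genes called. The Zglp1 call was lost without the second RB day 9 library (1.64). The knockout effect changed between day 3 and day 9 by 3.90 for Sohlh1 and -1.49 for Taf4b, beside 14.9% of all genes called.

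The 7 groups of 1 library had no replicate and entered no comparison. The 0R3B library of day 9 stood above every PGCLC library without factors for all 7 genes, and for 4 of them the whole counting interval did. Figla was 32.0 RPM there (95% exact Poisson interval 25.6 to 39.5, from about 86 reads), Zglp1 29.8 (23.6 to 37.04), Sohlh2 100.5 (88.8 to 113) and Taf4b 322 (301 to 344). The highest library without factors had 2.89, 3.51, 30.1 and 90.8 RPM of these genes. Nobox was 1.49 RPM in 0R3B (0.405 to 3.81), Sohlh1 1.12 and Lhx8 1.12 (0.230 to 3.26 each), against 1.30, 0.620 and 0.329. In the 0R3B library 80.8% of low values were whole reads, the lowest share of all libraries, so its intervals are approximate.

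In the C57BL/6 line with Gtrosa26tm1Sor, the c7RB library of day 9 had its whole interval above the same level for 3 genes. Zglp1 was 31.1 RPM (26.0 to 37.02), Sohlh2 74.6 (66.5 to 83.4) and Taf4b 108 (98.7 to 119). Its Figla was 2.90 RPM (1.498 to 5.06) and its Sohlh1 0.724 (0.149 to 2.12), both above that level with intervals that reach below it. Its Stra8 was 27.5 RPM, and the c7CT library of that day had 0 RPM of Figla and 24.5 of Stra8. The c0RB library of day 2 had 1.08 RPM of Zglp1 (0.294 to 2.76).

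In 24 sets of 4 knockout libraries, 4 had 1 library apart from the other 3: Figla at day 3 (0.160 RPM), Sohlh1 at day 5 (0.521), Lhx8 at day 5 (0.343) and Lhx8 at day 7 (0.351). Each of these values is about 1 read, under the floor of 3 reads, and the other 3 libraries were at 0, a pattern that meets the test for a library apart by its construction. In sets without such zeros chance flags about 1 in 20.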

How the results depend on the processing

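Of 135 tests on single factors, no called value changed direction in 1343 alternative values or in 700 that left out 1 library; 47 of these values, none of them called, had the opposite sign (limma adjusted p of 0.5 or more). Calls were lost in 27 and gained in 8 of the former, and lost in 29 and gained in 6 of the latter. The replicate block, the spike-in term, averaging the SK1 libraries and leaving out libraries under 2 M reads changed no call; with the replicate block, the day 9 counts were 4 factors for RB over CT and 3 between the genotypes. Deviations of same-numbered libraries from their group means, taken over genes, correlated by -0.008 to 0.239 in 19 comparisons. In 8 of them the value was above 0.1, and such libraries share only a number. The spike-in term could not be fitted in the embryo or the 129S1:C57BL/6 line, where spike-in goes with stage or is in every library.

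Smaller moves in the counts of factors called are not listed here. Among these, the Figla call between the genotypes at day 9 was lost with a pseudocount of 0.25 RPM. The larger moves in the counts were as follows. For RA against CT there was 1 at day 5 with a pseudocount of 0.25 RPM or median centring, 2 at day 7 with a filter at 20 RPM or 1 fit over all experiments, and 1 at day 9 with a pseudocount of 5 RPM. With no filter on low values, which adds the low genes Sohlh1, Lhx8 and Nobox, 7 were called for RB against CT and 6 for RB against RA at day 9. With 1 fit over all experiments 5 were called for RB against RA at day 9. Shares of all genes under these settings are not given here. For RB against RA there were 0 at day 5 with a pseudocount of 0.25 RPM or no filter, and 1 at day 7 with 0.25 RPM. For wild type at day 5 there was 1 with either pseudocount, no filter, quantile normalization, or SK2 or SK3 left out, and for knockout against wild type at day 7 there was 1 with a pseudocount of 5 RPM or SK1 left out. Leaving out 1 library gave 0 to 1 for RB against CT and for RB against RA at day 5, 1 to 2 for RA against CT at day 9, RB against RA at day 7, wild type at day 5 and the genotypes at day 7. The cause was not tested.

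Of the 3 genes most like each factor, the number kept with Spearman rho was 0 for Figla, Sohlh1, Sohlh2 and Zglp1 and 1 for Nobox, Lhx8 and Taf4b. Over the 30 groups with replicates it was 0 for Sohlh2 and 1 for Sohlh1, Lhx8, Zglp1 and Taf4b. Depth limits Nobox and Lhx8, which were under 3 reads in most libraries.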
